A study of Mus musculus with 18 samples.

Results

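The antioxidant and glutathione genes described here are 40 mouse genes. Most are for enzymes that remove superoxide and peroxides, keep protein thiols reduced, or make and use glutathione. The rest include the oxidative stress factor NRF2, its regulator KEAP1, the thioredoxin inhibitor Txnip, and quinone and haem enzymes. The 40 were taken from a list of such genes, and each had at least 10 expected counts in 6 or more of the 18 ovary libraries. All 40 met that bar, out of 17131 genes that did and 55416 genes listed. Every library came from 1 ovary of a wild-type female Balb/c mouse. The young controls (YC) were 8-week-old mice given distilled water, the aged controls (OC) were 40-week-old mice given distilled water, and the treated aged mice (OC+SM) were 40-week-old mice dosed orally with Samul-tang, a decoction of medicinal herbs, at 2.5 g/kg. Doses were given 5 times weekly over 4 weeks, and there were 6 mice in each group. All 3 groups, controls included, were primed with 5 IU of PMSG, a gonadotropin from mare serum, and after 48 hours were given 5 IU of hCG, a chorionic gonadotropin that triggers ovulation. Ovaries were collected 16 hours after hCG, in a post-ovulatory state. No young mice were given Samul-tang, so its comparison with young controls differs in both age and treatment. Aged control and treated mice were housed apart within shared cages, and their cage mates are unknown here.

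Superoxide leaks from mitochondrial electron transport and from the cytochrome P450 reactions of steroid synthesis, and superoxide dismutases turn it into hydrogen peroxide. Catalase, glutathione peroxidases and peroxiredoxins then reduce the peroxide, drawing electrons from glutathione or from thioredoxin, both of which are kept reduced at the expense of NADPH. In the ovary these reactions are best known in the corpus luteum, the progesterone-making gland that forms from the ruptured follicle, and in granulosa cells around the oocyte. The factor NRF2, encoded by Nfe2l2 and held in check by KEAP1, switches on many of these genes through a DNA element called the antioxidant response element.

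Levels are CPM, counts per 1000000 counts of the library, at sizes scaled by TMM, and a gene is called higher or lower where the edgeR quasi-likelihood test gave a Benjamini-Hochberg adjusted p under 0.05 over all 16959 genes tested. Fold changes are on the log2 scale and carry the fitted standard error (SE). Totals of expected counts, in units of 1000000, were 9.05 to 14.15 in young controls, 11.61 to 13.43 in aged controls and 14.2 to 20.35 in treated mice, so every treated library was deeper than every aged control. The most abundant gene, ENSMUSG00000119584, took 13.81 to 18.49% of the counts in aged controls and 6.2 to 14.35% in treated mice. In young controls its share was 12.58 to 15.95%. Whether the treated libraries were prepared or sequenced apart was not stated, and such a batch cannot be told apart from treatment. Luteal, granulosa and oocyte markers were detected in all 3 groups, as the ovary label requires. Young library 3 and treated library 6 had the lowest mean correlations with their groups (0.964 and 0.963). For some results that rest on them, values without them are given as well, and elsewhere the library is named. P-values measure the spread between these mice.

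The 40 genes spanned a wide range of levels. Gpx3, the secreted plasma glutathione peroxidase, was the most abundant, with a mean of 1763.1 CPM over the 18 libraries. Sod1, the cytosolic copper-zinc superoxide dismutase, followed at 1127.2 CPM and Prdx1, a cytosolic peroxiredoxin, at 735.9 CPM. The lowest was Nqo1, the quinone reductase often used as a reporter of NRF2, at 3.57 CPM. These are levels of 3' tags, 1 per transcript molecule, so no length correction was made when genes were ranked. The spread between mice also differed by gene. The coefficient of variation within groups, averaged over the 3 groups, was 6.0% for Prdx5 and 6.6% for Sod2, the lowest values. It was 28.1% for Nqo1, 27.5% for Gstm1, 25.3% for Gclc, 24.6% for Txnip and 21.6% for Gpx3. Depth was lowest for Nqo1, where 1 CPM stood for 9 to 20 counts.

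**Figure D1:**
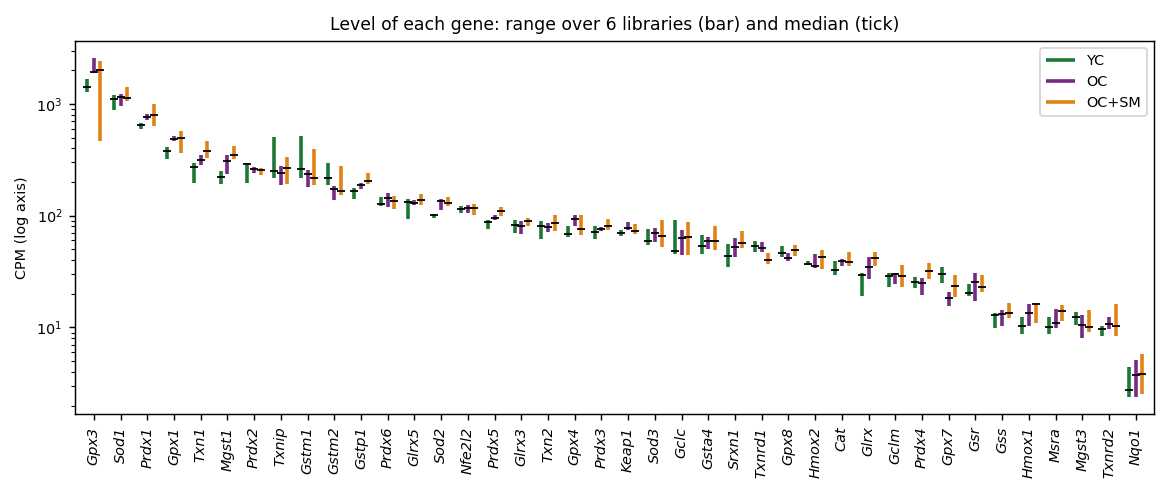
Range (bar) and median (tick) of CPM over the 6 libraries of each group for each of the 40 genes, on a log axis, ordered by mean level. Gpx3 reached from 469.3 to 2405.8 CPM in treated mice, the longest bar, and Nqo1 was lowest throughout.

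For 33 of the 40 genes RefSeq (GRCm38.p6, a build other than that of the counts) gave a window of 250 bases before to 50 bases after the transcription start. These windows were searched on both strands for the core of the antioxidant response element, TGACNNNGC, which reads GCNNNGTCA on the other strand and can overlap an AP-1 site (TGACTCA). It was present for 7 of the 33 genes (21.2%), namely Gclm, Mgst1, Nfe2l2, Prdx1, Sod1, Srxn1 and Txnrd1, and for 14.0% of the 27025 genes with a window. A GC box, GGGCGG on either strand, was present for 27 of the 33 genes (81.8%) and for 38.2% of the 27025. Those 27025 genes were not filtered for expression in these ovaries, whereas the 33 were, so the shares are not of like sets. A match of letters is a description of the window and not evidence of binding. The 4 windows shown are those of genes with a match that were called between treated mice and young controls, below, with the match in capitals. For Prdx1 the window is chr4:116685349-116685648, plus strand, with the match starting 133 bases before the start. For Mgst1 it is chr6:138140277-138140576, plus strand, with the match 56 bases before the start. For Srxn1, chr2:152105274-152105573, plus strand, the match lies 29 bases after the start. For Txnrd1, which has 3 windows in the table, the window with a match is chr10:82858956-82859255, plus strand, and the match begins 92 bases before the start.
Prdx1: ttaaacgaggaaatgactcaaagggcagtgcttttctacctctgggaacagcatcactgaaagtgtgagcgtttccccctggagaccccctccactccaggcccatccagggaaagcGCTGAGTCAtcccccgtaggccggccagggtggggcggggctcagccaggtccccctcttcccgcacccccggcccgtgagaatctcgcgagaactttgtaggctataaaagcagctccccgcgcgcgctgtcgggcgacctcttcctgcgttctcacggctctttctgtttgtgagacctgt
Mgst1: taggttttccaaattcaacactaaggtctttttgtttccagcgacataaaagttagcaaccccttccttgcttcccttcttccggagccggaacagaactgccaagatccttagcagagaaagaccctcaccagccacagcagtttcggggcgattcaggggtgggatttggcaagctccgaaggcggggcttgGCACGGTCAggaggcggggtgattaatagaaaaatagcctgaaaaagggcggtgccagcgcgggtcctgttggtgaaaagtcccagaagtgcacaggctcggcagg
Srxn1: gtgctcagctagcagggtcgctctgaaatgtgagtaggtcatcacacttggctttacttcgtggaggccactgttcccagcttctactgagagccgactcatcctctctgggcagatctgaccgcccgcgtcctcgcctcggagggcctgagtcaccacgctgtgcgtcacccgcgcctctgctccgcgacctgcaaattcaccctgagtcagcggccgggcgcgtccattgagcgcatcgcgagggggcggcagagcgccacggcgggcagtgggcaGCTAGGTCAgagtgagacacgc
Txnrd1: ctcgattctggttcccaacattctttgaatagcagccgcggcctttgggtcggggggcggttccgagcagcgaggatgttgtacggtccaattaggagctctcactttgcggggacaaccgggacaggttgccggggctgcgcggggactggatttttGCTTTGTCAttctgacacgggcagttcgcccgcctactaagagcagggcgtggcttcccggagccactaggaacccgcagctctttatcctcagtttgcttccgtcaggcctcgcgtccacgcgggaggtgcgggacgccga
All 4 matches were read on the minus strand, and the one of Prdx1, GCTGAGTCA, contains an AP-1 site. Of these genes, Mgst1 was called higher with age, Txnrd1 was called lower with Samul-tang, and Prdx1 and Srxn1 were called in the comparison of treated mice with young controls alone.

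In aged against young controls, a mitochondrial superoxide dismutase, a pair of glutathione peroxidases, thioredoxin and a microsomal glutathione transferase were higher, and an endoplasmic reticulum peroxidase and a cytosolic transferase were lower. Of the 40 genes, 5 were called higher (Sod2, Gpx1, Gpx4, Txn1 and Mgst1), 2 lower (Gpx7 and Gstm2) and 33 were not called. Among all genes tested 11.3% were called, 5.25% higher and 6.03% lower, against 12.5% and 5.0% of the 40. The log2 fold change was positive for 29 of the 40 genes (72.5%) and for 51.2% of all genes, and the medians were 0.12 and 0.01. Changes were small: single genes ran from -0.72 to 0.57. In whole ovaries, fewer cells of a type and less RNA per cell cannot be told apart.

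Among superoxide dismutases, Sod2, the manganese enzyme of the mitochondrial matrix, lay between 94.9 and 102.6 CPM in young controls (median 101.0), between 112.3 and 141.2 in aged controls (median 134.2) and between 122.4 and 147.1 in treated mice (median 130.2). Every aged control was above every young control, and the treated mice overlapped the aged controls. Sod2 was 1.3-fold higher with age (log2 fold change 0.38 ± 0.06 SE, edgeR adjusted p = 0.000274), and it stayed called in all 26 alternative fits. Sod1 overlapped in all groups, with medians of 1104.7, 1141.3 and 1119.5 CPM in young, aged and treated mice, and its age difference had a 95% interval of -0.10 to 0.23. The third enzyme, Sod3, which is secreted, had a log2 fold change of 0.12 ± 0.11 SE and was not called.

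The enzymes that remove hydrogen peroxide and lipid peroxides moved in different directions. Gpx1, the cytosolic and mitochondrial glutathione peroxidase, lay between 323.0 and 413.6 CPM in young controls (median 380.1), between 461.7 and 516.3 in aged controls (median 485.2) and between 360.6 and 568.4 in treated mice (median 499.5). The 2 control groups did not overlap, and Gpx1 was called higher with age (log2 0.36 ± 0.08 SE, edgeR adjusted p = 0.00372). Gpx4, which reduces lipid peroxides in membranes and protects cells from ferroptosis, lay between 63.9 and 80.9 CPM in young controls (median 68.7), between 80.9 and 101.4 in aged controls (median 93.0) and between 67.2 and 101.1 in treated mice (median 76.6). The lowest aged control met the highest young control, and Gpx4 was called higher with age (log2 0.38 ± 0.09 SE, edgeR adjusted p = 0.00672). Treated mice spread over the range of both control groups, and neither of their Gpx4 comparisons was called (log2 -0.20 ± 0.09 against aged controls and 0.18 ± 0.09 against young controls).

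Gpx7, a peroxidase of the endoplasmic reticulum that lacks selenocysteine, had the largest age difference of the 40 among those called. It lay between 25.0 and 34.9 CPM in young controls (median 30.0), between 15.6 and 20.7 in aged controls (median 18.5) and between 18.9 and 29.6 in treated mice (median 23.3). No aged control reached the lowest young control, and treated mice lay between, overlapping both. Gpx7 fell by 0.72 ± 0.11 SE on the log2 scale with age (edgeR adjusted p = 7.27e-05); with Samul-tang the difference was 0.37 ± 0.11 SE (adjusted p = 0.0754), not called by edgeR and called by DESeq2. Without treated library 6 it was also called, the adjusted p over all alternatives running from 0.0225 to 0.553. Gpx8, the other peroxidase of that compartment, was not called with age (log2 -0.18 ± 0.07 SE, adjusted p = 0.121).

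Gpx3 differed between the control groups in every library but was not called. It lay between 1286.8 and 1653.7 CPM in young controls (median 1403.1), between 1895.3 and 2589.8 in aged controls (median 1946.2) and between 469.3 and 2405.8 in treated mice (median 2001.0). Treated library 6 alone held the value of 469.3, below every other library of the study. With age the log2 fold change was 0.57 ± 0.27 SE (edgeR adjusted p = 0.212). In the fit of the 12 control libraries alone the adjusted p was 0.000124, and Gpx3 was also called when treated library 6 was left out (adjusted p = 0.00355). Without that library the log2 difference was -0.07 ± 0.12 SE with Samul-tang, where it was -0.27 ± 0.27 SE with it, and Gpx3 was called higher in treated mice than in young controls (0.49 ± 0.12 SE, adjusted p = 0.00802). Treated library 6 also had the lowest summed level of 8 endothelial markers of any library (218.8 CPM, against 294.1 to 401.5 in the control groups). Its sum of 10 macrophage markers was the highest (657.2 CPM, against 233.5 to 498.8 in the control groups). Of that list, Lyz2, Ctss and Cd68 had highest treated values of 325.9, 115.8 and 22.3 CPM (medians 186.6, 52.2 and 13.1). Csf1r, C1qc and Mrc1 varied little over all treated mice, at 31.5 to 36.1, 33.5 to 42.2 and 14.8 to 17.6 CPM. The part of these markers in the Gpx3 level of treated library 6 was not tested. Cat, the peroxisomal catalase, had medians of 32.4, 39.5 and 38.8 CPM in young, aged and treated mice, and the age difference just missed the threshold (log2 0.23 ± 0.08 SE, edgeR adjusted p = 0.0532).

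In the thioredoxin system, Txn1, the cytosolic thioredoxin that passes electrons to peroxiredoxins, lay between 195.4 and 294.4 CPM in young controls (median 272.1), between 282.0 and 350.8 in aged controls (median 316.3) and between 326.5 and 461.4 in treated mice (median 381.9). Neighbouring groups overlapped and the treated mice lay above all young controls. Txn1 was called higher with age by a narrow margin (log2 0.27 ± 0.09 SE, edgeR adjusted p = 0.0428). The call was lost in 10 of 26 alternative fits, each of which left out 1 library (aged controls 1, 2, 3, 4 or 5, young controls 3, 4 or 6, or treated mice 1 or 5), with adjusted p up to 0.107. Txn2, its mitochondrial counterpart, and Txnrd2, the mitochondrial thioredoxin reductase, were not called, with log2 fold changes of 0.02 ± 0.08 SE and 0.18 ± 0.14 SE. Txnip, which binds and inhibits thioredoxin, lay between 217.8 and 506.7 CPM in young controls (median 248.5) and between 188.8 and 278.8 in aged controls (median 240.8). It was not called (log2 -0.31 ± 0.20 SE, edgeR adjusted p = 0.382). Young control 3 alone held the value of 506.7, where the other young controls lay between 217.8 and 254.3 CPM, and the difference without it is not given here.

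No peroxiredoxin was called with age by edgeR, while 2 of the 6 had an unadjusted p under 0.05 and DESeq2 called 1. Of all 16959 genes, 4078 had an unadjusted p under 0.05 with age. Prdx1 and Prdx5 were each higher in every aged than in every young control, at 714.2 to 819.9 against 597.2 to 678.2 CPM and at 91.4 to 102.0 against 76.3 to 91.1 CPM. Their log2 fold changes were 0.24 ± 0.08 SE (adjusted p = 0.0541) and 0.17 ± 0.06 SE (adjusted p = 0.0816). Prdx2, abundant in red blood cells as well as in other cytosol, had medians of 287.8, 261.6 and 258.8 CPM and overlapped throughout (log2 -0.05 ± 0.08 SE with age). Over the 40 genes, 6 had all aged controls above all young controls (Sod2, Gpx1, Gpx3, Prdx1, Prdx5 and Keap1) and 2 had them all below (Gpx7 and Gstm2); over all genes tested the groups stood apart in this way for 3.21% and 4.17%.

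Glutathione transferases, which attach glutathione to electrophiles, held a call in each direction. Mgst1, the microsomal transferase with peroxidase activity, lay between 191.4 and 252.6 CPM in young controls (median 223.1), between 234.9 and 345.5 in aged controls (median 307.7) and between 321.3 and 417.0 in treated mice (median 352.4). Its control groups overlapped through 1 aged library, and it was called higher with age (log2 0.42 ± 0.09 SE, edgeR adjusted p = 0.00162). Gstm2, a cytosolic mu-class enzyme, lay between 186.2 and 298.1 CPM in young controls (median 215.6), between 139.5 and 185.0 in aged controls (median 172.9) and between 151.9 and 278.2 in treated mice (median 166.5). All aged controls were below all young controls by a narrow gap. Gstm2 was called lower with age (log2 -0.47 ± 0.14 SE, edgeR adjusted p = 0.0449), but 16 of 26 alternatives lost the call, including those that left out any aged control or young control 1, 2, 3, 5 or 6, or treated library 6, with adjusted p up to 0.118. Gstm1, its near neighbour in sequence, had medians of 263.9 CPM in young and 234.1 in aged controls and was not called (log2 -0.42 ± 0.22 SE, edgeR adjusted p = 0.273). Young control 3 held 515.8 CPM of Gstm1, where the other young controls lay between 218.1 and 291.2, and the difference without it is not given here. Expected counts were not whole in 9 libraries for Gstm1 and 15 for Gstm2, so reads were split with other genes, and with which ones was not tested. Gstp1, the pi-class enzyme, had a log2 difference of 0.19 ± 0.06 SE (adjusted p = 0.0595).

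The genes for making and recycling glutathione were not called. These are Gclc and Gclm, the catalytic and modifier subunits of the rate-limiting ligase, Gss, glutathione synthetase, and Gsr, glutathione reductase. edgeR called 0 of the 4 in any comparison. With age 1 had an unadjusted p under 0.05, as had 4078 of all 16959 genes, and DESeq2 called 0. Gclc had medians of 48.0, 63.3 and 64.1 CPM in young, aged and treated mice, with young control 3 at 91.3, and its age difference of 0.16 had a 95% interval of -0.26 to 0.59. For Gclm the medians were 28.8, 29.9 and 28.8 CPM and the interval was narrower, -0.19 to 0.24.

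On the NRF2 axis, the ranges of Nfe2l2 mRNA overlapped in all groups, with medians of 114.9, 117.2 and 116.3 CPM, and the 95% interval of the age difference ran from -0.10 to 0.17. Keap1, the adaptor that marks NRF2 for degradation, lay between 65.9 and 74.3 CPM in young controls and between 74.4 and 88.5 in aged controls. The groups did not overlap, yet Keap1 missed the threshold (log2 0.19 ± 0.06 SE, edgeR adjusted p = 0.0516). Hmox1, the inducible haem oxygenase, had medians of 10.4, 13.5 and 16.1 CPM and was not called with age (log2 0.36 ± 0.13 SE, adjusted p = 0.0757). Nqo1 lay between 2.38 and 4.47 CPM in young and between 2.40 and 5.15 in aged controls. Its interval ran from -0.14 to 0.81, and it was not called (log2 0.34 ± 0.23 SE, edgeR adjusted p = 0.406). The other members were not called with age either: the log2 differences were 0.11 ± 0.07 SE for Prdx6, 0.10 ± 0.07 for Prdx3, -0.06 ± 0.10 for Prdx4, 0.13 ± 0.10 for Gsta4, -0.22 ± 0.13 for Mgst3 and -0.03 ± 0.09 for Hmox2, the constitutive haem oxygenase.

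**Figure D2:**
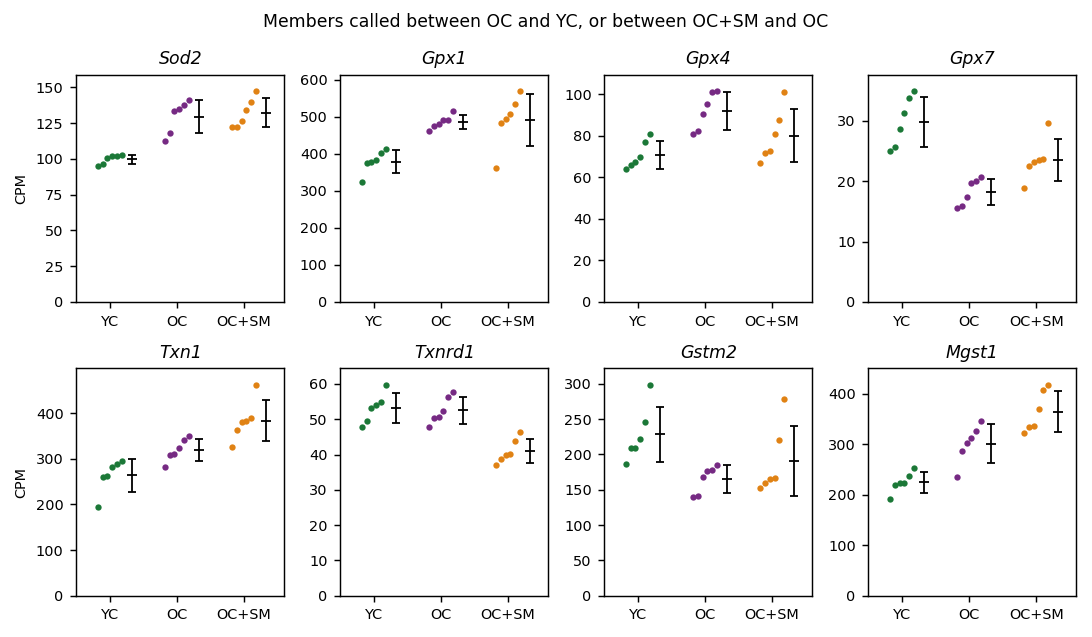
CPM in each library (points, sorted within each group) with the group mean and SD (bars, n = 6) for the 8 genes called between aged and young controls or between treated and untreated aged mice. Sod2, Gpx1, Gpx7 and Gstm2 show control groups that do not overlap, and Txnrd1 shows treated mice at 37.1 to 46.4 CPM, below all other libraries.

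Cell type markers moved with age beside these genes. Summed over 8 luteal markers, levels were 10266.6 to 13563.9 CPM in young and 15159.1 to 17399.1 in aged controls, and 2 of the 8 were called higher. Endothelial markers summed to 294.1 to 342.8 and 363.8 to 401.5 CPM, with 3 of 8 called higher. Oocyte markers summed to 116.7 to 178.0 and 34.9 to 61.8 CPM, and all 9 of 10 that were tested were called lower. Of 8 granulosa markers 5 were called lower, as were 3 of 4 theca and 1 of 6 stromal markers. Macrophage markers summed to 233.5 to 498.8 and 361.5 to 486.7 CPM, with 2 of 10 called higher. None of these lists had a marker at 0 in all libraries. Treated mice against young controls gave 2 luteal, 2 endothelial and 2 macrophage markers higher, and 9 oocyte, 5 granulosa, 3 theca and 1 macrophage markers lower; 3 of the 8 luteal markers had negative fold changes there. The part of these cell types in the differences of the antioxidant genes was not tested. The 40 genes together summed to 6481.2 to 6982.9 CPM in young and 7636.2 to 8213.8 in aged controls; without Gpx3 the sums were 5120.3 to 5472.7 and 5440.6 to 5911.6 CPM, which overlap.

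Between treated and untreated aged mice, the 1 gene of the 40 that was called was Txnrd1, the cytosolic thioredoxin reductase, a selenoprotein that uses NADPH to reduce thioredoxin, which was lower. It lay between 47.7 and 59.7 CPM in young controls (median 53.7), between 47.7 and 57.7 in aged controls (median 51.5) and between 37.1 and 46.4 in treated mice (median 40.1). All 6 treated mice were below all 12 controls. Txnrd1 fell by 0.36 ± 0.07 SE on the log2 scale with Samul-tang (edgeR adjusted p = 0.0174), while its age difference was -0.02 with a 95% interval of -0.16 to 0.13. Without treated library 3 the adjusted p was 0.0534 (log2 -0.33), and it was 0.583 with the count share of ENSMUSG00000119584 as a covariate (log2 -0.18). That share differs between the groups, as given above, so the covariate also takes up part of any difference between them.

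Of the 40 genes, 1 was called lower and 0 higher with Samul-tang, where 0.489% and 0.548% of all genes were, 1.04% in either direction. At an unadjusted p under 0.05 edgeR gave 9 higher and 2 lower, beside 2861 of all 16959 genes in either direction, and DESeq2 called 2 higher. The groups stood apart for Txnrd1 alone among the 40, and over all genes for 0.678% downward and 0.849% upward. Log2 differences were positive for 31 of the 40 genes (77.5%) and for 51.4% of all genes, with medians of 0.09 and 0.01. They ran from -0.36 for Txnrd1 to 0.37. For 30 of the 40 genes the 95% interval lay within 0.5 of 0 on the log2 scale and for all 40 it lay within 1.

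Prdx4, the peroxiredoxin of the endoplasmic reticulum, came nearest to a call. It lay between 22.7 and 28.3 CPM in young controls (median 25.4), between 19.4 and 27.9 in aged controls (median 24.8) and between 27.0 and 37.7 in treated mice (median 31.8). Treated and untreated aged mice overlapped slightly. The difference was 0.37 ± 0.09 SE on the log2 scale (edgeR adjusted p = 0.052), and 7 of 26 alternatives called it, among them those without aged control 5, young control 3 or treated library 4 or 6, with adjusted p from 0.0178 to 0.65. Prdx4, Gpx7 and Gpx8, the peroxidases of the endoplasmic reticulum among the 40, had log2 differences of 0.37, 0.37 and 0.23, none of them called by edgeR. Txn1, which Txnrd1 reduces, had a difference of 0.27 ± 0.09 SE that was not called (adjusted p = 0.113).

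Several genes had intervals that bound the difference with Samul-tang closely. For Nfe2l2 it was -0.16 to 0.10, for Keap1 -0.22 to 0.04, for Sod1 -0.13 to 0.20, for Cat -0.12 to 0.20 and for Sod2 -0.10 to 0.16. For Prdx2 it was -0.20 to 0.13 and for Gclm -0.19 to 0.23. The wide intervals belonged to the genes that varied most between mice: -0.84 to 0.30 for Gpx3, -0.40 to 0.52 for Nqo1, -0.33 to 0.50 for Gclc, -0.30 to 0.64 for Gstm1 and -0.23 to 0.61 for Txnip. Hmox1 lay at -0.09 to 0.44.

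Between treated and untreated aged mice edgeR called 0 of 62 tested cell type markers, where 1.04% of all genes were called. Of the 62, 14 had an unadjusted p under 0.05, as had 2861 of all 16959 genes, and DESeq2 called 2. All 6 stromal and 8 of 9 tested oocyte markers had positive log2 differences, with medians of 0.19 and 0.35. Of 8 endothelial markers 1 was positive and 7 were negative, and all 5 tested erythrocyte markers were negative. Positive were 3 of 8 granulosa, 2 of 4 theca, 7 of 10 macrophage, 2 of 2 oviduct and 2 of 2 adipocyte markers tested. The endothelial sum was 218.8 CPM in treated library 6, where the median of treated mice was 355.8 and that of aged controls 388.6. Luteal markers summed to 15312.6 to 17911.5 CPM in treated mice, against 15159.1 to 17399.1 in aged controls. Most of that sum came from Cyp11a1 and Hsd3b1. Of the 8 luteal markers 3 had positive and 5 negative log2 differences, with a median of -0.3. Gene length moved with this comparison: the median length was 1169 bases for genes called higher and 3621 for those called lower, where it was 2207 for all genes tested and 1362 for the 40 genes; Txnrd1 has 2321. With the trend on length removed Txnrd1 stayed called.

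**Figure D3:**
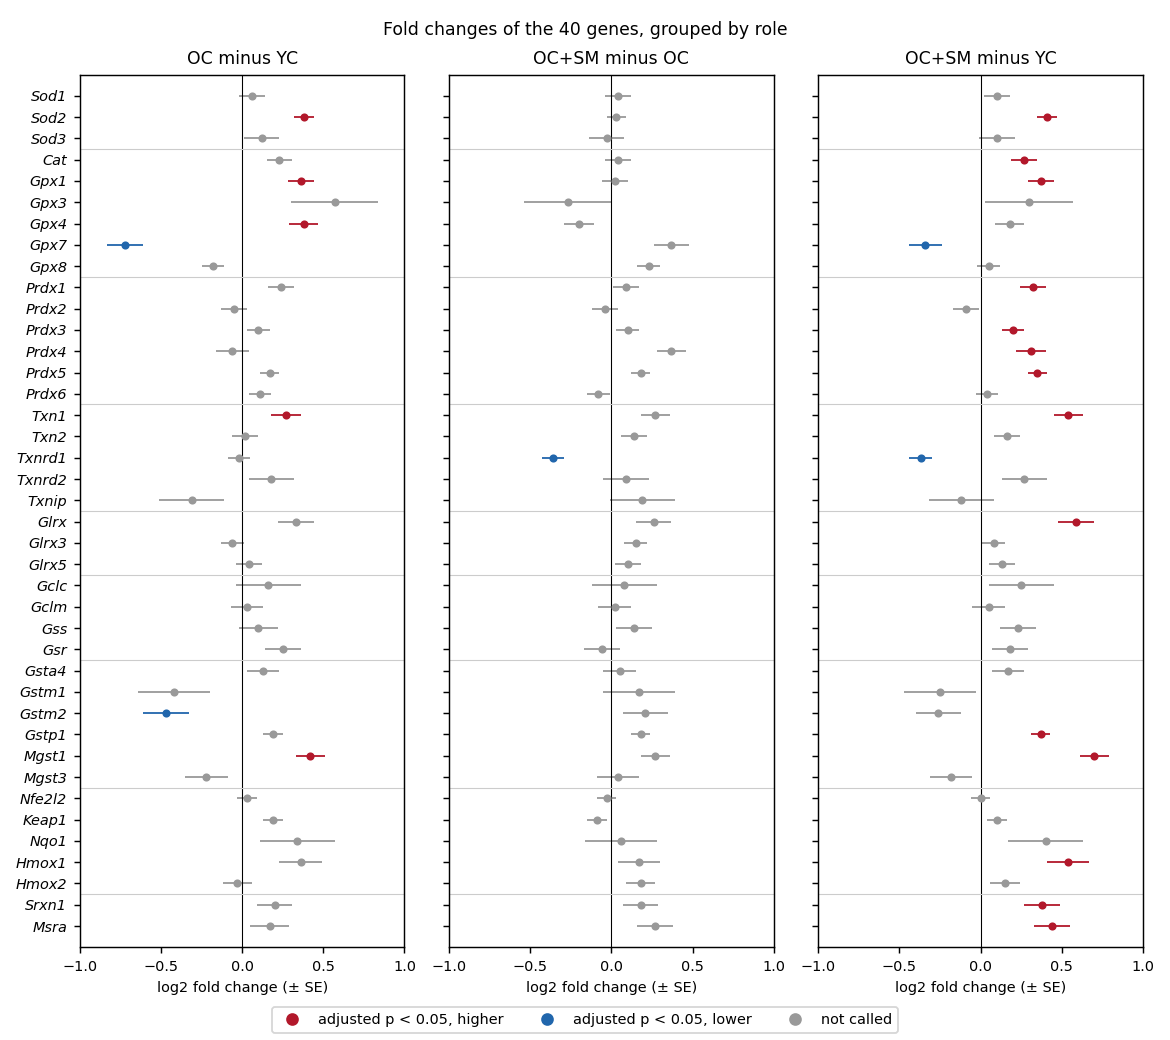
Log2 fold change (point) and SE (line) of each of the 40 genes in the 3 comparisons, from 1 fit of all 18 libraries; red and blue mark genes called higher and lower. With age 5 genes are red and 2 blue, with Samul-tang Txnrd1 alone is coloured, and between treated mice and young controls 14 are red and 2 blue.

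Compared with young controls, treated aged mice had the most calls. Of the 40 genes 14 were called higher and 2 lower (Gpx7 and Txnrd1), that is 35.0% and 5.0%, where 11.5% and 10.9% of all genes were, 22.4% in either direction. The log2 fold change was positive for 33 of the 40 (82.5%) and for 50.3% of all genes, with medians of 0.18 and 0.00. This comparison shares its young controls with the age comparison and its treated mice with the Samul-tang comparison, so the 3 sets of values are not independent. Gene length moved with this comparison too: the median length was 1661 bases for genes called higher and 2709 for genes called lower, and 19.3% of genes under 1000 bases but 7.08% of those of 4000 bases or more were called higher. None of the 40 genes is that long, and the part of length in their calls was not tested beyond removing the trend, which ended the calls of Prdx3 and Prdx4. Treated mice stood wholly above young controls for 6 of the 40 genes (Sod2, Prdx5, Txn1, Glrx, Gstp1 and Mgst1) and wholly below for Txnrd1, where this held for 4.85% and 4.65% of all genes.

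There were 4 peroxiredoxins among them. Prdx5, which works in mitochondria, peroxisomes and cytosol, lay between 99.5 and 120.5 CPM in treated mice (median 109.2), above all young controls, with a log2 fold change of 0.35 ± 0.06 SE (edgeR adjusted p = 0.000249). Prdx1 lay between 638.1 and 1006.1 CPM in treated mice (median 790.0), overlapping young controls, with 0.32 ± 0.08 SE (adjusted p = 0.00478). Prdx4 followed with 0.31 ± 0.09 SE (adjusted p = 0.0205). For mitochondrial Prdx3 the medians were 71.0 CPM in young and 80.8 in treated mice (log2 0.20 ± 0.07 SE, adjusted p = 0.0371). The Prdx3 call was lost in 10 of 26 alternatives, among them those without young control 2, 3 or 6 or treated library 2, 5 or 6, with adjusted p up to 0.208 (0.0652 with the length trend removed). Prdx4 lost its call without young control 4 or 5 (adjusted p = 0.0532 and 0.0539), without treated library 2 (0.0663), with the length trend removed (0.0603) and with the composition covariate (0.308).

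Mgst1 and Glrx had the largest fold changes of this comparison. Mgst1 was 0.70 ± 0.09 SE higher on the log2 scale (edgeR adjusted p = 5.68e-06). Glrx, the cytosolic glutaredoxin that removes glutathione from proteins, lay between 19.2 and 30.6 CPM in young controls (median 29.5), between 27.4 and 42.6 in aged controls (median 34.8) and between 35.5 and 47.7 in treated mice (median 41.5). Treated and young mice did not overlap, and the log2 fold change was 0.59 ± 0.11 SE (adjusted p = 0.000515). Its own values in the other comparisons were 0.33 ± 0.11 with age (adjusted p = 0.0562) and 0.26 ± 0.11 with Samul-tang (adjusted p = 0.226). Txn1 rose by 0.54 ± 0.09 SE (adjusted p = 0.000125), beside 0.27 in each of the other comparisons. Gstp1 lay between 140.0 and 175.1 CPM in young and between 193.1 and 239.6 in treated mice, with aged controls between, at 174.1 to 194.7 (log2 0.37 ± 0.06 SE, adjusted p = 0.000259). Glrx3 and Glrx5, the glutaredoxins of iron-sulfur cluster supply, were not called (0.08 ± 0.07 and 0.13 ± 0.08 SE).

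Further calls came from the remaining roles. Sod2 (log2 0.41 ± 0.06 SE), Gpx1 (0.37 ± 0.08 SE) and Cat (0.27 ± 0.08 SE) were higher, with edgeR adjusted p of 9.42e-05, 0.0016 and 0.0131. Hmox1 lay between 8.81 and 12.5 CPM in young and between 11.0 and 16.6 in treated mice (log2 0.54 ± 0.13 SE, adjusted p = 0.00408), where 1 treated library, number 5, overlapped the young controls and the other treated libraries began at 15.1. Both repair enzymes were higher. Srxn1, sulfiredoxin, which restores overoxidised peroxiredoxins, had medians of 44.0, 52.5 and 56.7 CPM in young, aged and treated mice (0.38 ± 0.11 SE, adjusted p = 0.0163). Without young control 3 and treated library 6 together Srxn1 was not called (log2 0.25, adjusted p = 0.0721). Msra, which repairs oxidised methionine, had medians of 10.1, 10.9 and 14.0 CPM (0.44 ± 0.11 SE, adjusted p = 0.0075). Gpx7 was lower in treated than in young mice (-0.34 ± 0.10 SE, adjusted p = 0.0205), a call lost without young control 4 or 6 (adjusted p = 0.0542 and 0.0566). Txnrd1 was lower too (-0.37 ± 0.07 SE, adjusted p = 0.000562).

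**Figure D4:**
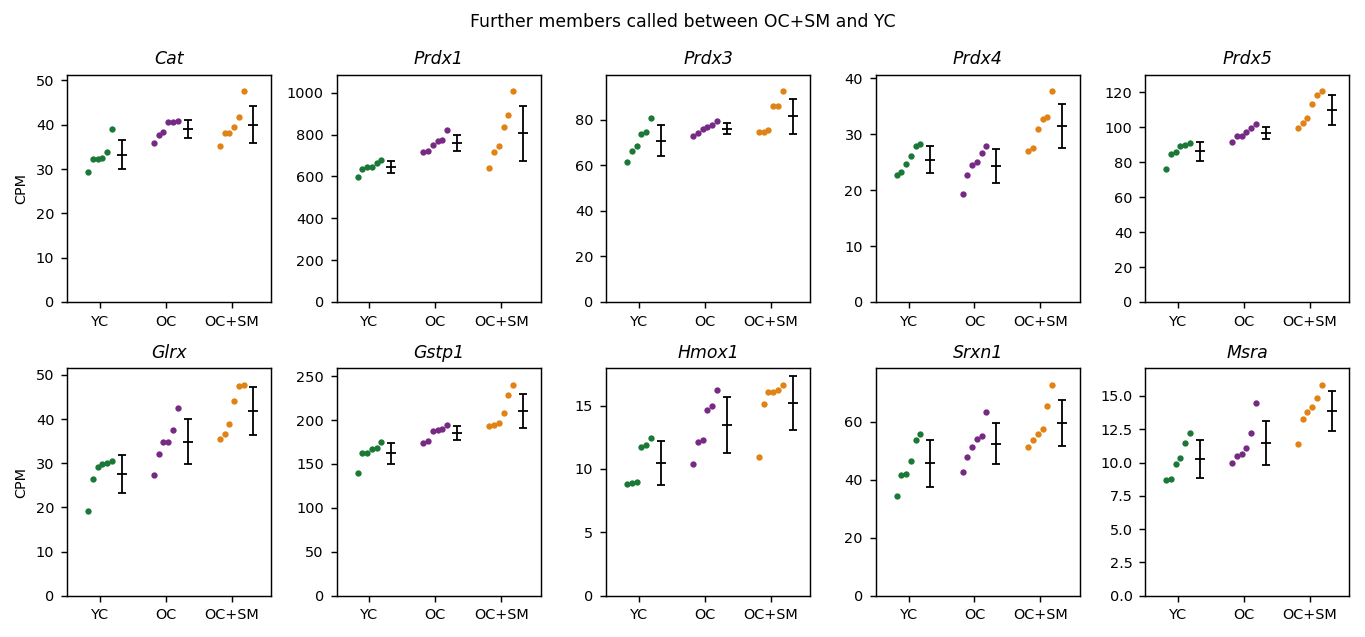
CPM in each library (points, sorted within each group) with the group mean and SD (bars, n = 6) for the 10 further genes called between treated mice and young controls. Prdx5, Glrx and Gstp1 show treated mice wholly above young controls, and for Hmox1 treated library 5 lies at 11.0 CPM, apart from the others.

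With the count share of ENSMUSG00000119584 as a covariate, 6 of the 40 genes were called higher against young controls and 0 lower. In that fit 1368 of all 16959 genes were called in either direction. At an unadjusted p under 0.05, 14 of the 40 were higher and 2 lower, beside 3672 of all 16959 genes in either direction. Sod2, Prdx5, Txn1, Glrx, Gstp1 and Mgst1 were called in every one of the 26 alternatives.

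The rest of the pathway was followed in lists of other genes. Their counts stand beside 5.25% of all genes called higher and 6.03% lower with age, and 11.5% and 10.9% in treated mice against young controls. With Samul-tang the shares were 0.548% and 0.489%. Among 41 other antioxidant and glutathione enzymes tested, 5 were called higher and 1 lower with age, and 16 higher and 1 lower in treated mice against young controls. Mgst2, a microsomal transferase that also makes leukotriene C, lay between 32.7 and 42.0 CPM in young, between 68.9 and 98.6 in aged and between 52.0 and 88.9 in treated mice. Both aged groups were above all young controls, with a log2 fold change of 1.09 ± 0.11 SE with age (edgeR adjusted p = 1.44e-06), larger than that of any of the 40 genes. Fth1, the heavy chain of the iron store ferritin, rose by 0.35 ± 0.06 SE with age (adjusted p = 0.000277). Txndc17, a small thioredoxin-like protein that Txnrd1 can reduce, lay between 65.6 and 84.6 CPM in aged controls and between 88.3 and 107.1 in treated mice, which did not overlap. It was called higher with Samul-tang (log2 0.31 ± 0.07 SE, adjusted p = 0.0394), but 14 of 26 alternatives lost the call. These were the fit of 12 libraries, the length trend, the composition covariate (0.634), and the fits without aged control 1, 3, 4, 5 or 6, young control 1, 2 or 6, or treated library 1, 2 or 3, the last group with adjusted p up to 0.109.

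Genes of selenoprotein synthesis and other selenoproteins held 1 call with Samul-tang among 17 tested, where 1.04% of all genes were called. Selenof, a selenoprotein of the endoplasmic reticulum, lay between 93.0 and 131.0 CPM in young, between 109.7 and 150.5 in aged and between 164.1 and 201.9 in treated mice. Treated mice were above all controls, and Selenof rose by 0.46 ± 0.09 SE (edgeR adjusted p = 0.0173), whereas Txnrd1, also a selenoprotein, was lower. The Selenof call was lost without treated library 3 (adjusted p = 0.0511) and with the composition covariate (log2 0.23, adjusted p = 0.566). Against young controls 5 of the 17 were higher and 0 lower, with Selenok at 0.46 ± 0.07 SE and Selenot at 0.40 ± 0.07 SE. Both act at the endoplasmic reticulum.

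In NADPH supply, 4 of 12 genes were called higher and 1 lower with age (5.25% and 6.03% of all genes), and 7 and 1 in treated mice against young controls (11.5% and 10.9% of all genes). Taldo1, transaldolase of the pentose phosphate pathway, lay between 163.5 and 239.9 CPM in young and between 268.0 and 291.2 in aged controls (log2 0.38 ± 0.07 SE, edgeR adjusted p = 0.00119). Pgls, the lactonase of the same pathway, rose by 0.39 ± 0.07 SE and Nadk, which makes NADP, by 0.35 ± 0.09 SE. Among 15 genes of glutathione supply and breakdown, 4 were lower and 0 higher with age. Cbs, which starts the route from homocysteine to cysteine, lay between 10.1 and 17.3 CPM in young and between 2.90 and 5.18 in aged controls and fell by 1.58 ± 0.19 SE on the log2 scale (adjusted p = 7.24e-06). Cndp2, a peptidase that splits cysteinylglycine, fell by 0.63 ± 0.13 SE. Anpep, an aminopeptidase of the cell surface, was called higher in treated mice against young controls (0.83 ± 0.17 SE, adjusted p = 0.000939) and was not called with age.

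Of 12 regulators of NRF2, 1 was called with age and 3 in treated mice against young controls, all higher. Among all genes 11.3% and 22.4% were called in either direction. Against young controls the log2 fold change was positive for 5 of the 12 and negative for 7, with a median of -0.04. Dpp3, a peptidase that binds KEAP1, was higher in every aged than in every young control (46.4 to 54.1 against 36.9 to 40.9 CPM; log2 0.33 ± 0.08 SE, edgeR adjusted p = 0.00737). Sqstm1, the p62 autophagy receptor that also binds KEAP1, was higher in treated than in young mice (0.31 ± 0.07 SE, adjusted p = 0.00316), as was Rbx1, a subunit of the ligase that marks NRF2 (0.30 ± 0.06 SE, adjusted p = 0.000919). Among 10 genes for sources of superoxide and peroxide, Aox1, aldehyde oxidase, was called, higher both with age (0.38 ± 0.11 SE) and in treated against young mice (0.54 ± 0.11 SE). The age call of Aox1 was lost without aged control 1 or 3 or young control 4 or 6, with adjusted p up to 0.0662.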

How the data were processed

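Single-ovary RNA of 18 mice was sequenced with the QuantSeq 3' kit, which reads transcript 3' ends, per the labels' protocols. Tools in the submitters' processing notes are STAR 2.7.9a, RSEM 1.3.3 and FastQC 1.9, with the build GRCm39 (annotation and strand setting: not given in the sources used here). The authors' tables hold RSEM expected counts per gene, per the file headers; these estimated counts were rounded to whole numbers. Deposited TPM and FPKM values were not used. RSEM splits reads among similar genes, and 10 of the 40 genes (Sod1, Sod2, Gpx4, Prdx1, Prdx2, Txn1, Glrx3, Gstp1, Keap1 and Hmox2) had a count that was not whole (tolerance 0.005) in every library, so that copies may share reads with them. Symbols came from an annotation of another build, by Ensembl identifier.

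Genes passing the edgeR count filter (16959) were scaled by TMM and tested with edgeR 4.0.16 (R 4.3.3), quasi-likelihood, two-sided, robust, in 1 fit of 3 group means. P-values were adjusted by Benjamini-Hochberg over all genes; called means under 0.05. Intervals are 95%. Alternatives were DESeq2 1.42.0, other size factors, no filter, the 12 libraries compared, a replicate block, a length trend, a composition covariate and left-out libraries, 26 per comparison. The edgeR fit was run on counts simulated from its own fitted model. Such a check cannot show how well that model describes these data. Named genes were all called members, a panel of 13 members, and up to 3 called genes with the smallest p of each pathway list. The members and lists were chosen with earlier results of these data known.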

Additional observations from a re-analysis of the deposited data

Results flagged for a closer look

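Of 120 groups of 6 values (40 genes in 3 groups), 10 held a library far from the other five by Dixon's test; chance flags about 1 in 20 groups. In 6 of these the library was young control 3. Its Txnip level was 506.7 CPM where the others lay between 217.8 and 254.3, Gstm1 was 515.8 against 218.1 to 291.2, and Gclc was 91.3 against 45.8 to 53.3. It was low for Txn1 (195.4 CPM against 260.5 to 294.4), for Glrx (19.2 against 26.5 to 30.6) and for Gstp1 (140.0 against 162.0 to 175.1). The same library had summed theca markers of 484.5 CPM, where the median of young controls was 135.3. Most of that theca sum was Cyp17a1, whose highest young value was 382.9 CPM (median 45.2). The other theca markers, Insl3, Ptch1 and Gli1, did not exceed 36.6, 63.4 and 14.6 CPM in young controls. Its summed macrophage markers were 498.8 CPM, where the median of young controls was 301.2. The part of these markers in the levels above was not tested.

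Sod1 was 1423.0 CPM in treated library 2, against 1057.3 to 1156.1 in the other treated libraries. Hmox1 was 11.0 CPM in treated library 5, against 15.1 to 16.6. In aged controls Gss was 10.2 CPM in library 4, against 12.9 to 14.3, and Hmox2 was 45.4 CPM in library 6, against 34.2 to 35.5.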

How the results depend on the processing

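No fold change of a called member reversed under any alternative run; of 624 values for called members, 569 kept their side of the threshold and 55 lost it. Of 96 member values that were not called, 29 (log2 differences up to 0.25 in size, Txnrd1 with age among them) changed sign in some alternative, and 0 were called after the change. With age, the 5 higher members became 10 with DESeq2, 10 in the 12 libraries compared, 8 with the length trend removed, 9 with the composition covariate and 9 without young control 3 and treated library 6 together. The 2 lower became 1 with no low-count filter, 1 with the replicate block (Gstm2 lost) and 1 with the covariate. With Samul-tang, 176 genes became 663 with DESeq2, 41 in the 12 libraries compared, 0 with the covariate (1356 at an unadjusted p under 0.05) and 483 without both libraries; higher members became 2 with DESeq2, 1 with no filter and 2 without both libraries, and the 1 lower member became 0 with the covariate. Against young controls, the covariate left 1368 of 3795 genes, 6 higher and 0 lower members.

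Leaving out single libraries gave, with age, 1505 to 2203 genes, 4 to 11 higher and 1 to 2 lower members (8 higher without treated library 2, 11 without treated library 6). With Samul-tang it gave 32 (without treated library 3) to 593 genes (without treated library 4), 0 to 3 higher and 0 to 1 lower members. Against young controls it gave 3090 to 3920 genes, 12 to 14 higher and 1 to 3 lower members. The cause of these shifts was not tested. Same-numbered libraries did not deviate together (correlations -0.118 to 0.074). The labels do not say what the numbers mark, and these correlations cannot exclude a shared cage or batch. With the replicate block 1756, 139 and 3535 genes were called with age, with Samul-tang and against young controls. In that fit Srxn1 against young controls had an edgeR adjusted p of 0.0534.

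Members not called but called without 1 library were, with age, Cat (without young control 3 or treated library 2 or 6; lowest adjusted p over all alternatives 0.00864), Prdx1 (treated 2 or 6; 0.00283), Glrx (aged 6, treated 6; 0.022), Gsr (aged 6; 0.0361), Gpx3 (treated 6; 0.000124), Gstp1 (young 1, treated 6; 0.0287), Keap1 (aged 4, treated 2, 4 or 6; 0.0321) and Hmox1 (aged 5; 0.0356). With Samul-tang they were Gpx7 (treated 6; 0.0225), Prdx4 (aged 5, young 3, treated 4 or 6; 0.0178), Gpx8 (treated 4; 0.0496) and Txn1 (young 3, treated 4; 0.043), and against young controls Gpx3 (treated 6; 0.00802), Prdx2 (young 3; 0.0302) and Gstm2 (treated 2; 0.0187). Among the 40 genes, Nqo1 had the lowest level, with 28 to 104 counts per library. The part of low counts in the width of its intervals was not tested.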
